A study of Homo sapiens with 4 samples.

Results

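The genes described here are 40 enzymes and droplet proteins that build triglyceride and membrane phospholipid, exchange the fatty acids of phospholipids, and store or break down fat in lipid droplets. They were taken as a fixed list of gene names, matched to the name in each table or, where that was blank, to the Ensembl identifier. All 40 were found in both tables, among 32485 genes in all, and 39 reached at least 1 CPM (reads of a gene scaled to the library's total) in either library of each line. CDS1 in UMUC3 and G0S2 in SW780 stayed below it.

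Glycerolipid synthesis starts when an acyltransferase puts a fatty acid from acyl-CoA on glycerol phosphate. A further acylation gives phosphatidate, which lipins turn into diacylglycerol. Diacylglycerol then goes to triglyceride in lipid droplets or, with activated choline or ethanolamine, to the main membrane phospholipids. SCD1, the stearoyl-CoA desaturase encoded by SCD, makes the monounsaturated acyl-CoA on which many of these acyltransferases act.

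RNA was sequenced from UMUC3 and SW780, both human bladder cancer cell lines. Each line had 1 library labelled shNT, with the genotype given as WT, and 1 library labelled shSCD1, in which SCD1 had been knocked down with a lentivirus. UMUC3 grew in MEM and SW780 in DMEM, both with fetal bovine serum, so line and medium cannot be told apart. The labels do not give the number of hairpins, clones or cultures behind a library. With 1 library in each of the 4 groups there is no replicate error and no test within a line. "Higher" and "lower" describe these libraries, and 95% intervals (exact Clopper-Pearson) cover counting error only.

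Reads counted in genes totalled 22818368 to 34087871 per library. For SCD itself, the shNT and shSCD1 levels were 264 and 59.6 CPM in UMUC3, and 592 and 92.1 CPM in SW780. Paired levels are given with shNT before shSCD1. The headers call the libraries only the first and the second. They were read as shNT and shSCD1, and SCD, the targeted gene, was lower in the second library of both lines. Every direction would turn round if a table had the other order. Of 15 urothelial markers, 12 reached 1 CPM in each SW780 library and 6 of the 12 with a value in each UMUC3 library, where KRT19 and UPK1B had 0 reads. Their summed level was 536 and 264 CPM in UMUC3, and 12439 and 10241 CPM in SW780. The summed level of 5 fibroblast markers was 177.6 and 249.8 CPM in SW780, most of it COL3A1. There LUM stood at 35.88 and 39.96 CPM and COL1A1 at 2.90 and 6.69 CPM, while DCN and PDGFRB were at 0. In UMUC3, where DCN had no value, the other fibroblast markers summed to 3.07 and 1.11 CPM, with LUM at 0. The part of these markers in the results was not tested. In bulk RNA, fewer cells of a type and less RNA per cell cannot be told apart.

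The members stood near the centre of each comparison. Ratios are log2((shSCD1 CPM + 1)/(shNT CPM + 1)), and the added 1 CPM understates differences of weakly expressed genes. The median ratio of the 39 members in UMUC3 was 0.00045, beside 0.04 over all 14063 genes kept. Of these members, 20 were above 0 (54.3% of all genes) and 19 below. By the authors' deposited log2 fold change 16 were above 0 and 23 below, with a median of −0.08 beside −0.04 over all genes kept. The share of all genes above 0 was not counted for that measure. In SW780 the median ratio of the members was −0.05, beside −0.01 over 12880 genes, with 14 above 0 (48.5%) and 25 below. In UMUC3, 1 member was higher by at least 2-fold (background 2.47% of genes) and none lower (2.18%). At 1.5-fold, 5 members were higher (10.1%) and 2 lower (6.86%). In SW780, no member reached 2-fold (1.48% higher, 1.06% lower), and at 1.5-fold 1 was higher (5.05%) and 1 lower (3.7%). The 20 members of UMUC3 given less fully lay between −0.32 and 0.44, and the 21 such members of SW780 between −0.32 and 0.35.

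**Figure D1:**
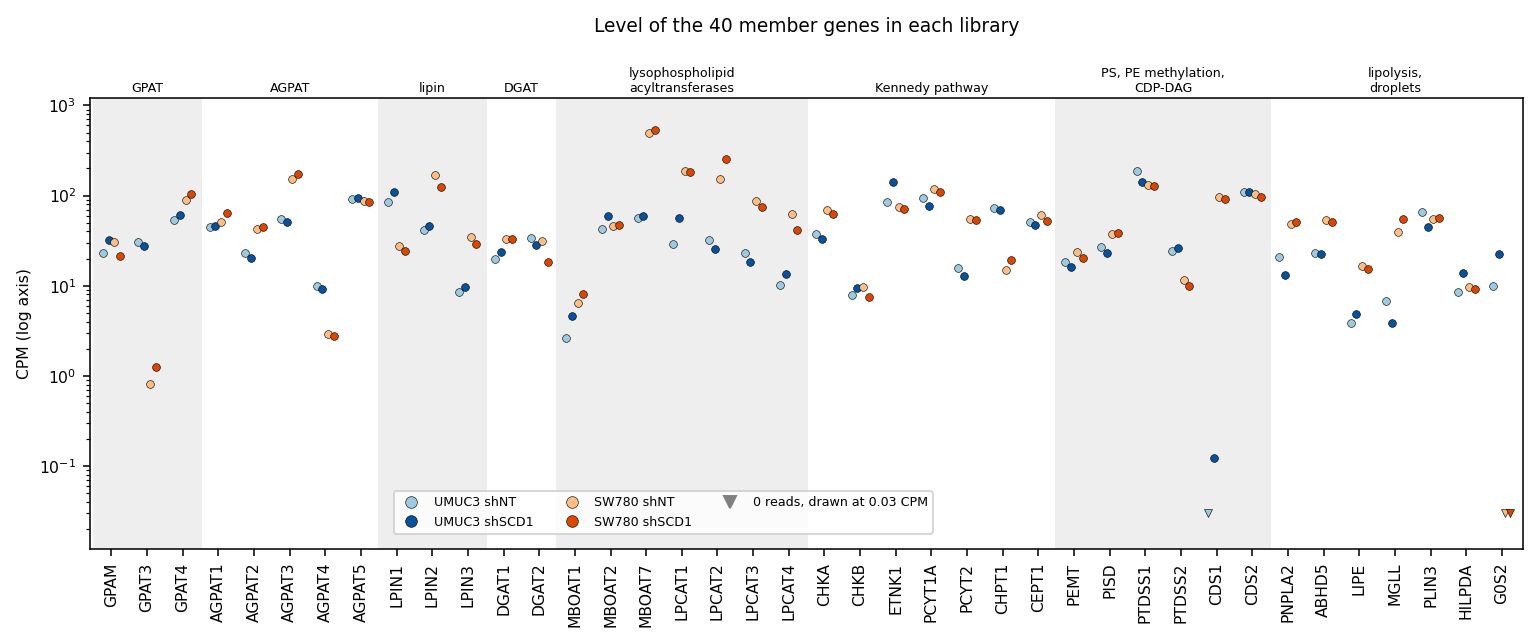
CPM on a log axis of the 40 members in each of the 4 libraries, ordered by role; each point is 1 library, and triangles mark 0 reads. MBOAT7 in SW780 stands at the top (500.3 and 534 CPM), and the 2 lines lie farther apart than the 2 libraries of a line for GPAT3, CDS1 and G0S2.

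More members were past 2-fold between the lines than between shNT and shSCD1. The tables were scaled separately, so levels set across them are a description. In the shNT libraries, 15 of 40 members were at least 2-fold higher in SW780 (27.5% of genes) and 5 at least 2-fold lower (14.8%). CDS1, a CDP-diacylglycerol synthase, had 0 and 4 reads in UMUC3, against 3285 and 2330 in SW780. Its SW780 shNT level was 733-fold above a floor of 3 reads in the UMUC3 shNT library. The exact 95% interval of the fold between these libraries starts at 596-fold. G0S2, an inhibitor of lipolysis, had 0 reads in both SW780 libraries, which allows up to 0.0880 and 0.117 CPM. Its UMUC3 shNT level of 10.0 CPM was 114-fold above the same floor in the SW780 shNT library, and the exact interval starts at 92.0-fold. GPAT3, a glycerol-3-phosphate acyltransferase, stood at 30.7 CPM in UMUC3 shNT and 0.821 CPM in SW780 shNT. That is 37.4-fold lower in SW780, from 701 and 28 reads. Its SW780 shSCD1 level rests on 32 reads, and the ratio of 1.52 between those libraries has an interval of 0.889 to 2.63. MBOAT7, which puts arachidonate back on lysophosphatidylinositol, stood at 55.9 and 500.3 CPM in the same libraries, 8.95-fold higher in SW780 (95% interval 8.45 to 9.48).

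Dividing CPM by the exonic length of each gene in kilobases allows levels of different genes to be compared roughly. The length is that of all annotated exons together (11849 bases for MGLL, 866 for G0S2), not of the transcripts expressed. Levels, shares and ratios per kilobase can therefore be too low for genes with many annotated exons. On that scale PTDSS1 was the highest member in UMUC3 shNT (29.5 CPM per kilobase), and G0S2 in UMUC3 shSCD1 (26.3), ahead of PTDSS1 (22.6). MBOAT7 was the highest in both SW780 libraries, at 94.5 and 101 CPM per kilobase. MGLL stood among the lowest in UMUC3, at 0.566 and 0.324 CPM per kilobase.

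The glycerol-3-phosphate acyltransferases, which catalyse the first step, differed in their make-up between the lines. Of the family's CPM per kilobase, GPAT3 made up 49.4% in UMUC3 shNT and 41.8% in UMUC3 shSCD1, but 1.63% and 2.31% in SW780. GPAT4, an enzyme of the endoplasmic reticulum that also moves to lipid droplets, had the family's highest mean level per kilobase over the 4 libraries, although GPAT3 was above it in both UMUC3 libraries. It stood at 53.3 and 61.0 CPM in UMUC3, and at 89.0 and 104 CPM in SW780, log2 ratios of 0.19 and 0.22. GPAM, the mitochondrial isoform and a target of the lipogenic factor SREBP-1, stood at 23.2 and 32.4 CPM in UMUC3 and at 30.5 and 21.2 CPM in SW780. It was thus higher in the shSCD1 library of UMUC3 (1.39-fold, 1.254 to 1.55) and lower in that of SW780 (1.44-fold, 1.30 to 1.60). Neither reached 1.5-fold, and the counting intervals lay on opposite sides of no difference.

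The lysophosphatidate acyltransferases make phosphatidate, and all 5 stayed inside a log2 ratio of 0.32 in either direction. Their ratios ran from −0.21 to 0.06 in UMUC3 and from −0.07 to 0.30 in SW780. AGPAT5 had the highest mean level per kilobase over the 4 libraries, but in SW780 AGPAT2 was above it (23.6 and 24.9 against 18.4 and 18.2 CPM per kilobase). AGPAT5 stood at 91.8 and 94.7 CPM in UMUC3 and at 86.2 and 85.1 CPM in SW780. AGPAT2, the isoform whose loss causes lipodystrophy, stood at 23.3 and 20.1 CPM in UMUC3 and at 42.5 and 44.8 CPM in SW780. AGPAT3 stood at 55.0 and 51.4 CPM in UMUC3 and at 153 and 173 CPM in SW780. AGPAT4 was low in SW780, at 2.93 and 2.74 CPM, against 9.99 and 9.31 CPM in UMUC3. These 3 differed more between lines than between the libraries of a line. AGPAT1, with a ratio of 0.30 in SW780, shares 30.2% of its exonic bases with genes such as EGFL8 on the other strand. The sources used here do not say whether the authors counted by strand.

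The lipins, which dephosphorylate phosphatidate, were all above 0 in UMUC3 (0.14 to 0.37) and all below 0 in SW780 (−0.44 to −0.18). Over all genes kept, 54.3% were above 0 in UMUC3 and 48.5% in SW780. LPIN2 stood at 41.3 and 45.5 CPM in UMUC3 and at 171 and 126 CPM in SW780, where it was 1.36-fold lower in shSCD1 (1.30 to 1.42). LPIN1, a coactivator as well as an enzyme, had ratios of 0.37 in UMUC3 and −0.18 in SW780. LPIN3 stood at 8.50 and 9.71 CPM in UMUC3 and at 35.1 and 29.3 CPM in SW780. The difference between lines was not tested. LPIN1 gave 47.2% of the lipin CPM per kilobase in UMUC3 shNT and 6.61% in SW780 shNT, where LPIN2 gave 71.5%.

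The diacylglycerol acyltransferases close triglyceride synthesis, and DGAT2 is the isoform known for using newly made fatty acids. DGAT2 (chromosome 11, 75759512 to 75801535, plus strand, GRCh38, GENCODE 29) stood at 31.4 CPM in SW780 shNT (1071 reads) and 18.4 CPM in SW780 shSCD1 (471 reads). It was the one member lower by 1.5-fold in that line, by 1.70-fold (1.53 to 1.90). In UMUC3 it stood at 33.7 and 28.0 CPM, 1.20-fold lower (1.09 to 1.32), so it was below the shNT library in both lines. DGAT1, its unrelated partner, stood at 19.7 and 23.8 CPM in UMUC3 and at 33.4 and 33.2 CPM in SW780. The share of DGAT2 in the pair's CPM per kilobase went from 47.1% to 38.1% in UMUC3 and from 32.9% to 22.5% in SW780.

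**Figure D2:**
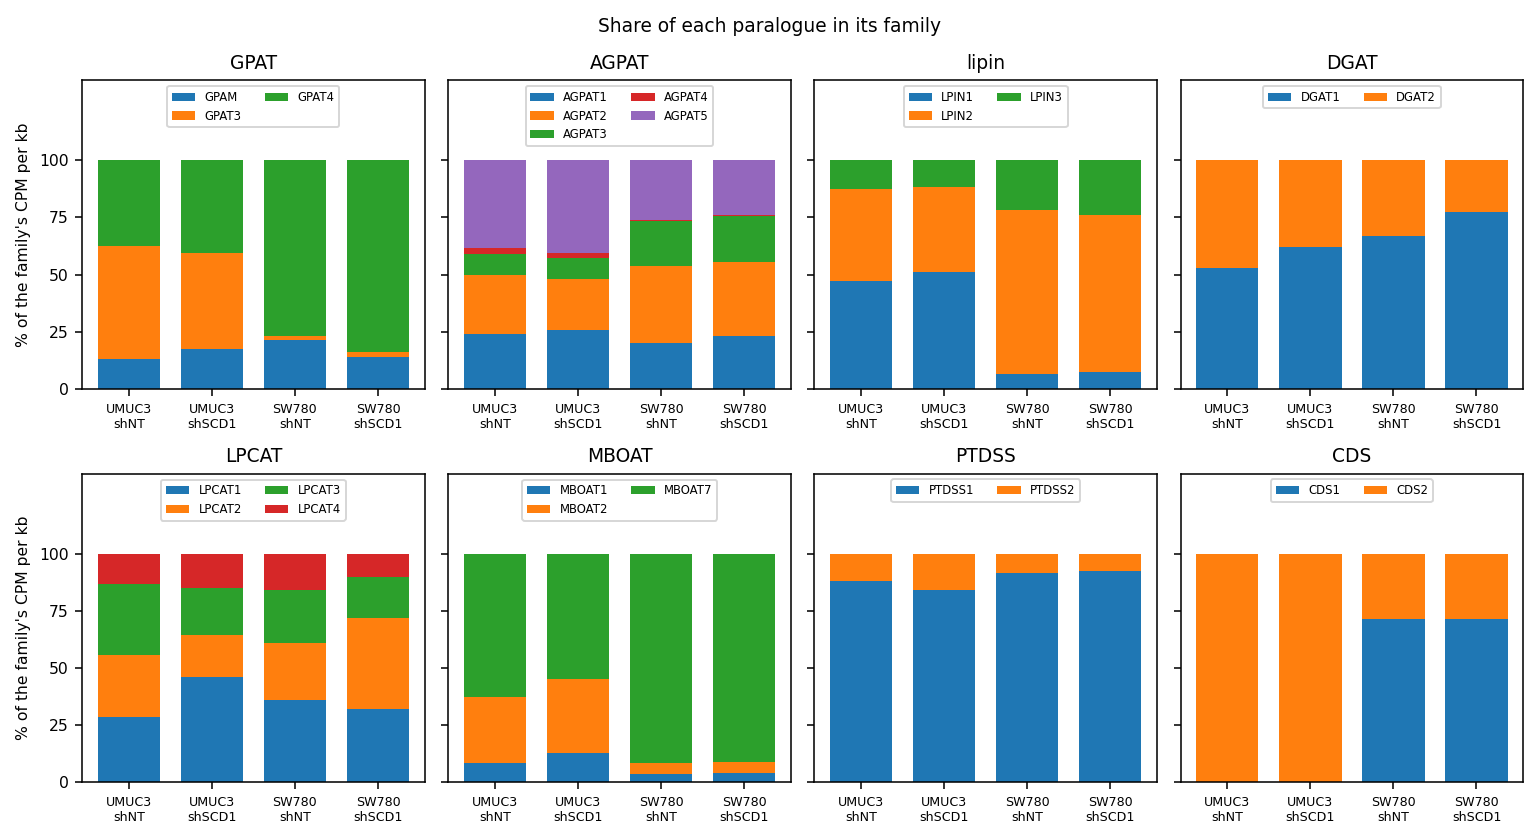
Share of each paralogue in the summed CPM per kilobase of its family, 1 stacked bar per library. The make-up of the GPAT, lipin, MBOAT and CDS families differs mainly between lines, and LPCAT1 in UMUC3 (28.4% to 46.0%) and LPCAT2 in SW780 (25.1% to 39.5%) take larger shares in the shSCD1 library.

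The lysophospholipid acyltransferases remodel phospholipids by putting a new fatty acid on a lysophospholipid. Of these 7 members, 2 were higher by 1.5-fold in UMUC3 (10.1% of all genes) and 1 in SW780 (5.05%), and none was lower (6.86% and 3.7%). LPCAT1 (chromosome 5, 1456480 to 1523977, minus strand), which favours saturated acyl-CoA, stood at 29.3 CPM in UMUC3 shNT (669 reads) and 56.0 CPM in UMUC3 shSCD1 (1821 reads). It was 1.91-fold higher (1.75 to 2.09), with a log2 ratio of 0.91. In SW780 it was far more abundant and nearly equal, at 189 and 183 CPM, a log2 ratio of −0.05.

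LPCAT2 (chromosome 16, 55508998 to 55586670, plus strand), an enzyme that also makes platelet-activating factor, had the other pattern. It stood at 151 CPM in SW780 shNT (5162 reads) and 256 CPM in SW780 shSCD1 (6539 reads), 1.69-fold higher (1.63 to 1.75). In UMUC3 it stood at 32.3 and 25.7 CPM, 1.26-fold lower (1.14 to 1.39). LPCAT1 was the highest LPCAT per kilobase in SW780 shNT and LPCAT2 in SW780 shSCD1, where the latter came to 34.4 CPM per kilobase.

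LPCAT4 stood at 10.2 and 13.4 CPM in UMUC3 and at 61.8 and 42.0 CPM in SW780. It was 1.32-fold higher in the shSCD1 library of UMUC3 (1.12 to 1.55) and 1.47-fold lower in that of SW780 (1.37 to 1.59). LPCAT3, which favours polyunsaturated acyl-CoA, had ratios of −0.32 and −0.24, but it shares 65.6% of its exonic bases with EMG1 on the other strand, so its values are uncertain. MBOAT1 (chromosome 6, 20102145 to 20212399, minus strand), which acts on lysophosphatidylserine and lysophosphatidylethanolamine, stood at 2.63 and 4.64 CPM in UMUC3, from 60 and 151 reads. It was 1.76-fold higher (1.30 to 2.42), and in SW780, at 6.48 and 8.18 CPM, 1.26-fold higher (1.04 to 1.53). MBOAT2, which prefers oleoyl-CoA, stood at 42.9 and 58.7 CPM in UMUC3, 1.37-fold higher (1.27 to 1.48), and at 45.8 and 47.2 CPM in SW780. MBOAT7 stood at 55.9 and 59.0 CPM in UMUC3 and at 500.3 and 534 CPM in SW780, ratios of 0.08 and 0.09.

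The Kennedy pathway activates choline and ethanolamine and joins them to diacylglycerol. Of its 7 members, 2 were above 0 (54.3% of all genes) and 5 below in UMUC3, and 1 above (48.5%) and 6 below in SW780. ETNK1 (chromosome 12, 22625075 to 22690665, plus strand), an ethanolamine kinase, was the only one of them past 1.5-fold. It stood at 85.7 CPM in UMUC3 shNT (1955 reads) and 141 CPM in UMUC3 shSCD1 (4578 reads), 1.64-fold higher (1.56 to 1.73). In SW780 it stood at 75.5 and 71.2 CPM. The next enzyme of the ethanolamine branch, PCYT2, had ratios of −0.30 in UMUC3 and −0.05 in SW780, and shares 28.1% of its exonic bases with other genes. CHKA, a choline kinase, had the group's highest mean level per kilobase over the 4 libraries, although CHPT1, PCYT1A and ETNK1 were above it in both UMUC3 libraries. It stood at 37.0 and 33.3 CPM in UMUC3 and at 69.0 and 63.0 CPM in SW780. PCYT1A, the rate-limiting enzyme of the choline branch, stood at 94.4 and 77.0 CPM in UMUC3, 1.23-fold lower (1.16 to 1.30), and at 117 and 109 CPM in SW780. CHPT1, the cholinephosphotransferase, stood at 72.3 and 69.0 CPM in UMUC3 and at 15.1 and 19.5 CPM in SW780, 1.29-fold higher there (1.14 to 1.46). CEPT1, which transfers both choline and ethanolamine, stood at 50.8 and 47.5 CPM in UMUC3 and at 61.3 and 51.7 CPM in SW780. None of these 3 reached 1.5-fold in either line. CHKB shares 72.5% of its exonic bases with the read-through gene CHKB-CPT1B and is uncertain.

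The other phospholipid routes, by way of phosphatidylserine, methylation of phosphatidylethanolamine and CDP-diacylglycerol, held no member past 1.5-fold in either line. PTDSS1, which makes phosphatidylserine from phosphatidylcholine, stood at 185 and 142 CPM in UMUC3 and at 131 and 127 CPM in SW780. It was 1.30-fold lower in the shSCD1 library of UMUC3 (1.2505 to 1.36) and had a ratio of −0.04 in SW780. PTDSS2, which uses phosphatidylethanolamine instead, stood at 24.2 and 26.3 CPM in UMUC3 and at 11.7 and 9.82 CPM in SW780. PISD, the mitochondrial phosphatidylserine decarboxylase, stood at 26.9 and 22.9 CPM in UMUC3 and at 37.7 and 38.1 CPM in SW780. The methyltransferase PEMT had ratios of −0.18 and −0.21, so it was lower in shSCD1 in both lines by less than 1.5-fold. CDS2 stood at 109.7 and 109.8 CPM in UMUC3, where CDS1 was near 0, and at 103 and 96.2 CPM in SW780.

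**Figure D3:**
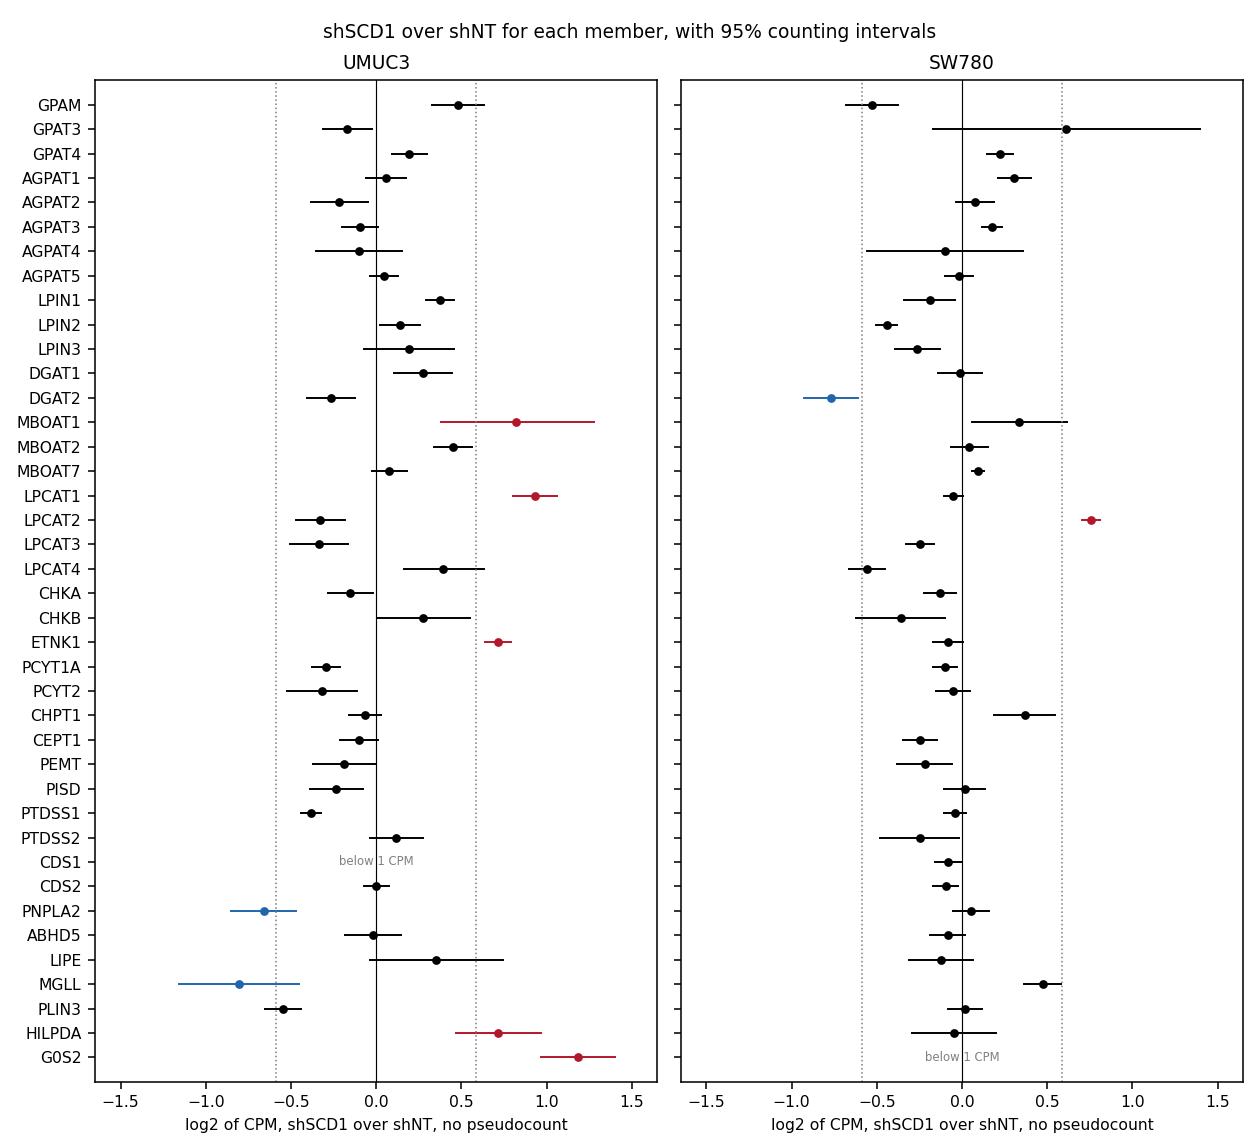
Log2 of the CPM ratio of shSCD1 over shNT, without the added 1 CPM, for each member in UMUC3 (left) and SW780 (right). Lines are 95% counting intervals, dotted lines mark 1.5-fold, and members past 1.5-fold on the CPM + 1 scale are red (higher) or blue (lower): 5 and 2 in UMUC3, 1 and 1 in SW780.

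Of the 7 lipolysis and lipid droplet members, 2 were higher (10.1% of all genes) and 2 lower (6.86%) by 1.5-fold in UMUC3. None of the 6 kept in SW780 was (5.05% and 3.7%). PNPLA2 encodes the triglyceride lipase that starts the breakdown of droplets; G0S2 and HILPDA encode small proteins that inhibit it, and ABHD5 its coactivator. PNPLA2 (chromosome 11, 818902 to 825573, plus strand) stood at 20.6 CPM in UMUC3 shNT (471 reads) and 13.1 CPM in UMUC3 shSCD1 (425 reads). It was 1.58-fold lower (1.38 to 1.81). In SW780 it stood at 48.6 and 50.4 CPM, a ratio of 0.05.

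G0S2 (chromosome 1, 209675420 to 209676388, plus strand) had 229 reads in UMUC3 shNT and 741 in UMUC3 shSCD1, 10.0 and 22.8 CPM. It was 2.27-fold higher (1.95 to 2.64) and alone among the members passed 2-fold, with a log2 ratio of 1.11, or 0.89 with 5 CPM added in place of 1. HILPDA (chromosome 7, 128455849 to 128458418, plus strand), also a target of hypoxia-inducible factors, stood at 8.50 and 14.0 CPM in UMUC3, from 194 and 454 reads. It was 1.64-fold higher (1.38 to 1.95), while in SW780 it stood at 9.62 and 9.32 CPM. Per kilobase, G0S2 stood at 2.16 times the level of PNPLA2 in UMUC3 shNT and 7.74 times in UMUC3 shSCD1. HILPDA stood at 0.765 and 1.98 times that level in UMUC3, and at 0.367 and 0.343 times in SW780. The coactivator ABHD5 stood at 0.570 and 0.888 times that level in UMUC3 and at 0.565 and 0.514 times in SW780. In CPM, ABHD5 stood at 23.1 and 22.8 CPM in UMUC3 and at 54.0 and 50.9 CPM in SW780, both close to equal.

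MGLL (chromosome 3, 127689062 to 128052190, minus strand), which cleaves the last fatty acid from monoglyceride, stood at 6.71 and 3.84 CPM in UMUC3, from 153 and 125 reads, 1.75-fold lower (1.37 to 2.23). In SW780 it stood at 39.7 and 55.1 CPM, 1.39-fold higher (1.29 to 1.497). LIPE, the hormone-sensitive lipase, had ratios of 0.28 and −0.11. PLIN3, a droplet coat protein found in most cells, lay just under 1.5-fold: it stood at 65.3 and 44.8 CPM in UMUC3, 1.46-fold lower (1.36 to 1.57). In SW780 it stood at 55.2 and 56.0 CPM. In UMUC3 the nearest members past 1.5-fold were PNPLA2 and MBOAT1, with ratios of −0.62 and 0.64, against −0.53 for PLIN3 and 0.46 for GPAM outside it. With 5 CPM added in place of 1, PNPLA2 (−0.51), MGLL (−0.40), HILPDA (0.49) and MBOAT1 (0.34) all lay inside 1.5-fold in UMUC3.

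**Figure D4:**
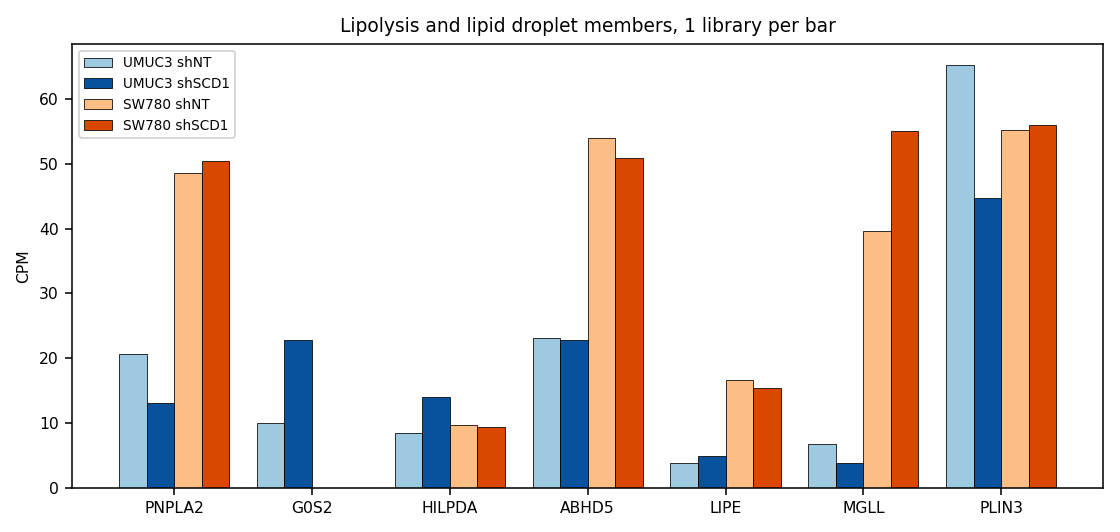
CPM of the 7 lipolysis and lipid droplet members, 1 bar per library, with no error bars because each group has 1 library. In UMUC3, PNPLA2, MGLL and PLIN3 are lower and G0S2 and HILPDA higher in shSCD1; in SW780, MGLL is higher (39.7 and 55.1 CPM) and G0S2 is at 0.

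The bases just before the start of 3 members past 1.5-fold in UMUC3 are given to show what precedes the lipase PNPLA2, its inhibitor G0S2, and LPCAT1, the enzyme with the next highest ratio. They are the 250 bases before the start in RefSeq (GRCh38.p14), 5′ to 3′ on the strand of the gene, from a table that held 29 of the 40 members. They lie at chr1:209675162-209675411 (plus strand) for G0S2, chr11:818664-818913 (plus) for PNPLA2 and chr5:1523961-1524210 (minus) for LPCAT1. Capitals mark matches, on either strand, to the motifs searched. These were the CCAAT box CCAAT, the GC box GGGCGG, the E-box CACGTG, the sterol regulatory element TCACNCCAC and the TATA box TATAAA. The form ACGTG of the hypoxia response element core, which the E-box contains, was searched too.
G0S2: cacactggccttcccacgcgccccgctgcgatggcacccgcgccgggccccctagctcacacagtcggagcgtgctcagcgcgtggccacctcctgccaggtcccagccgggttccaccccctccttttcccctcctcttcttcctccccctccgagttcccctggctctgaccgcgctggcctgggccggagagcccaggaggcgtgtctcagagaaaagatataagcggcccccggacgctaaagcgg
PNPLA2: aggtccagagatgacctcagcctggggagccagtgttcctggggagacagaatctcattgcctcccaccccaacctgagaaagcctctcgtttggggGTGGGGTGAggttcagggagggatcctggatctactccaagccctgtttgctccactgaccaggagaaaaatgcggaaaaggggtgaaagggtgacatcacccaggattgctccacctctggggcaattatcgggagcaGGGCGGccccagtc
LPCAT1: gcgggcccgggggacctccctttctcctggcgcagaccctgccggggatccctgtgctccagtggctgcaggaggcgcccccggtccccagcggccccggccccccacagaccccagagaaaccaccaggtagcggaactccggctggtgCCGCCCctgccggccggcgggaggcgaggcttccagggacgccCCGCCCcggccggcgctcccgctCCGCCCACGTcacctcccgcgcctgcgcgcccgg

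The stretch before LPCAT1 held 3 GC boxes and 1 ACGTG, the latter sharing a base with a GC box. That before PNPLA2 held 1 GC box and 1 match to TCACNCCAC, at positions −153 to −145 from the start, on the opposite strand. The stretch before G0S2 held none of the 6 motifs as searched. It does hold GCGTG, which differs from ACGTG in its first base and was not searched. GC boxes were in 21 of 29 members (72.4%) and in 42.3% of 27303 such stretches of all genes. The match to TCACNCCAC was in 1 of 29 members (3.45%) and in 0.875% of all, and CCAAT was in 9 members (31%) and in 33% of all. ACGTG was in 3 members (10.3%) and in 18.7% of all. None of the 29 held CACGTG or TATAAA, which were in 6.49% and 11.1% of all. The members are protein-coding, while the stretches of all genes were not limited by gene type or by expression. The differences in these shares were not tested. A match is a run of letters and no evidence of binding.

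The lines were then set side by side over the 38 members kept in both. On the CPM + 1 scale, no member had a log2 ratio of at least 0.32 in the same direction in both lines. By that rule, 3.08% of 11152 genes were higher and 1.81% lower in both. GPAM and LPCAT4 passed it as higher in UMUC3 and lower in SW780 (2.03% of genes). MGLL was lower in UMUC3 and higher in SW780 (2.65%). These counts depend on the scale. By the authors' deposited log2 fold change, DGAT2 (−0.35 and −0.76) and MBOAT1 (0.72 and 0.34) passed 0.32 in the same direction in both lines. LPCAT2 (−0.41 and 0.76) passed it in opposite directions, and LPCAT4 in UMUC3 (0.31) did not pass it. The share of all genes by that measure was not counted. The sign was the same in both lines for 15 of the 38, and for 51.6% of all genes. With the lines as the only repeat, limma on log2(CPM + 1) with line as a block called none of the 38 members at an adjusted p of 0.05. It called 1 of 11152 genes, BEST1, which is no member, and 481 had an unadjusted p below 0.05. The lowest adjusted p among the members was 0.951 (limma). DGAT2 was alone among them at an unadjusted p below 0.05, with a mean log2 change of −0.50 (SE 0.199, limma), lower in 2 of 2 lines. By edgeR on the same libraries, DGAT2 was also alone among the members below that unadjusted p, beside 382 of 11152 genes. By DESeq2 no member was below it, beside 365 of 11152 genes. Neither called a member after adjustment. The limma fit leaves 1 residual degree of freedom a gene, and a missed threshold does not show that the members were equal.

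**Figure D5:**
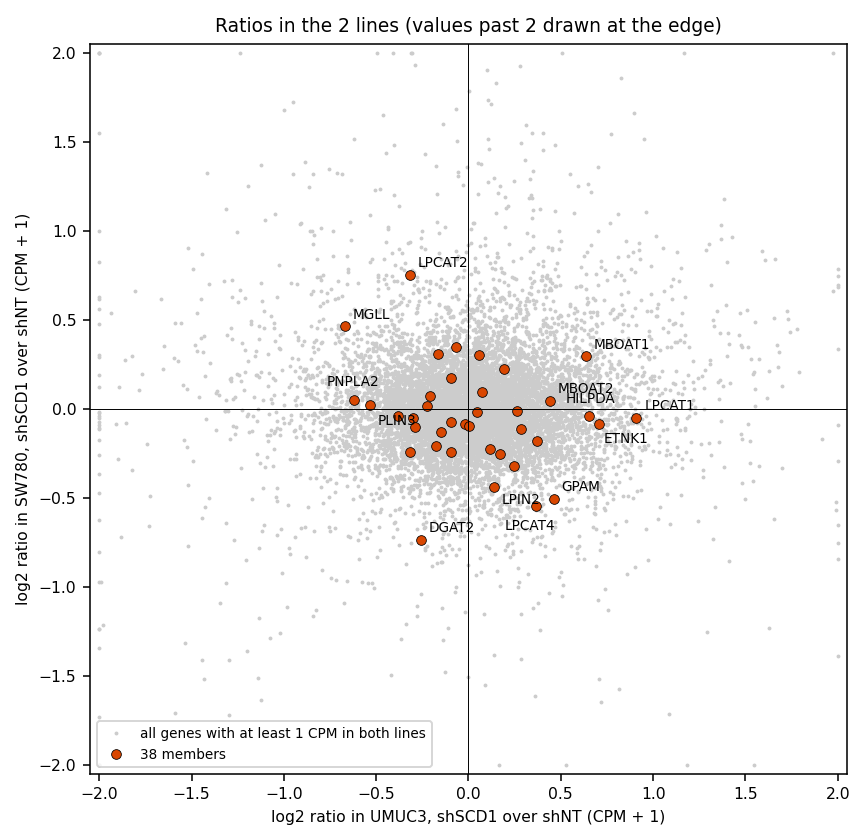
Log2 ratio of shSCD1 over shNT (CPM + 1) in UMUC3 against that in SW780, for 38 members (orange) and all 11152 genes kept in both lines (grey). Members far from 0 in one line lie near 0 in the other (LPCAT1, ETNK1, HILPDA, PNPLA2) or on its opposite side (MGLL, LPCAT2, LPCAT4, GPAM); MBOAT1 and DGAT2 lie on the same side in both.

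A list of 77 other genes of the same pathways was counted in the same way. In UMUC3, 59 were kept, with a median ratio of −0.02. Of these, 1 was higher (2.47% of all genes) and 3 lower (2.18%) by at least 2-fold, and 3 were higher (10.1%) and 8 lower (6.86%) by 1.5-fold. In SW780, 62 were kept, with a median of −0.08. None of them passed 2-fold (1.48% and 1.06%), and 2 were higher (5.05%) and 4 lower (3.7%) by 1.5-fold. CAV1, which encodes caveolin 1 of caveolae and droplet surfaces, stood at 811 and 327 CPM in UMUC3, 2.48-fold lower (2.42 to 2.54), and at 733 and 978 CPM in SW780. PLPP3, a phosphatase of lysophosphatidate and phosphatidate, had 105 and 16 reads in UMUC3, 9.36-fold lower (5.50 to 17.0), and 632 and 446 in SW780. DGKE, a diacylglycerol kinase, stood at 3.37 and 8.57 CPM in UMUC3, 2.54-fold higher (1.97 to 3.31), and at 23.6 and 22.6 CPM in SW780. CES1, a carboxylesterase, had 30 and 3 reads in UMUC3, 14.3-fold lower (4.43 to 73.0), and 0 and 4 reads in SW780. PLIN2, the coat protein that usually follows droplet content, stood at 29.7 and 25.8 CPM in UMUC3 and at 14.0 and 16.1 CPM in SW780, ratios of −0.20 and 0.19.

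The authors' deposited tables give a GFOLD value, a cautious log2 fold change that is 0 where the counts leave the direction uncertain. In the authors' deposited table for UMUC3, 9 of the 39 members kept had a GFOLD value above 0 (25.8% of genes) and 17 below (34.9%). In that for SW780, 8 of 39 had one above 0 (25.7%) and 13 below (26%). The authors' deposited table gives G0S2 in UMUC3 a GFOLD of 0.85, LPCAT1 0.70 and PNPLA2 −0.52. It gives LPCAT2 in SW780 0.70 and DGAT2 −0.58.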

How the data were processed

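Per the labels' protocols, the 4 libraries were made from total RNA with a TruSeq kit and read on a NovaSeq. The submitters' processing notes name hg38. No aligner, counter, annotation or strand setting is given in the sources used here. Per the file headers, the authors deposited a GFOLD value (setting 0.01) and a log2 fold change of the second library over the first, an empirical FDR (a q-value, 1 in every row, not used) and 2 columns headed RPKM. The deposited signal in those columns is a read count scaled to 1 total in all libraries, with no gene length in it. Divided by 1 step per library, 100% of the values up to 20 reads, and at least 99.9% of all values, came within 0.1 of a whole number, so whole reads were recovered. The design assumed normalized values, and CPM from these reads was used.

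A gene was kept in a line if 1 of its libraries reached 1 CPM. The size rules were 2-fold and 1.5-fold on log2(CPM + 1), and a log2 ratio of 0.32 for agreement between lines. Over both lines, limma 3.58.1 was fitted with line as a block. As alternatives, edgeR 4.0.16 and DESeq2 1.42.0 were run on the recovered reads. Benjamini-Hochberg adjustment was over all genes tested for limma and edgeR. For DESeq2 it was over the genes left by that tool's default filter on low counts. Of these alternatives, edgeR called 1 gene. Positions, exonic lengths and overlaps came from GENCODE 29 (GRCh38). The headers do not name the libraries: the column order was read from the table names.

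The steps were tested on simulated data, in which a changed gene had the same fold in both lines. All genes had the same fixed spread between libraries, which was assumed and not estimated from these data. The counts below hold for that setting and need not hold for the sequenced libraries. Of genes changed 3-fold, 95 of 99 passed 2-fold in UMUC3 and 96 of 99 in SW780. Of genes changed 1.5-fold, 53 of 101 and 49 of 101 passed 1.5-fold. Of unchanged genes, 485 of 11552 in UMUC3 and 501 of 12121 in SW780 passed 1.5-fold. Over both lines, limma called 22 of 101 genes changed 1.5-fold, 99 of 99 changed 3-fold and 7 of 10871 unchanged. In the sequenced libraries SCD was 4.44-fold lower in UMUC3 shSCD1 and 6.43-fold lower in SW780 shSCD1. It was nevertheless not called over both lines (limma, adjusted p 0.0848). Members named in the text were those past 1.5-fold in either line, the highest per kilobase in each role, and those past a log2 ratio of 0.32 in both lines; of the other pathway genes, those past 2-fold in either line and PLIN2. The remaining members were given values beside them after their values were seen. The members and lists were chosen with earlier results of these data known. The motifs were chosen after the data were seen.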

Additional observations from a re-analysis of the deposited data

Results flagged for a closer look

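On the CPM + 1 scale, 3 members stood past a log2 ratio of 0.32 in opposite directions in the lines. That is the reason they are listed. The difference between lines was not tested, since each line has 1 library per group. The log2 ratio of MGLL in UMUC3 minus that in SW780 was −1.13 (−0.67 and 0.46). For GPAM the difference was 0.97 (0.46 and −0.51). For LPCAT4 it was 0.91 (0.36 and −0.55).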

How the results depend on the processing

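All 9 ratios past 1.5-fold kept their sign in each of the alternatives run for them, and were on the same side of 1.5-fold in 67 of 71. The other 4 were MBOAT1, HILPDA, PNPLA2 and MGLL in UMUC3 with a pseudocount of 5 CPM, with ratios of 0.34, 0.49, −0.51 and −0.40. With that pseudocount, 0 members of UMUC3 passed 2-fold and 3 passed 1.5-fold (3 higher, 0 lower). Over all genes kept, 0.59% were then higher and 0.697% lower by 2-fold, and 4.1% higher and 3.39% lower by 1.5-fold. G0S2 in UMUC3 was then at 0.89, and PLIN3 in UMUC3 was past 1.5-fold (−0.63) by the authors' deposited log2 fold change. The members' median ran from −0.08 to 0.02 in UMUC3, so its sign depends on the setting, and from −0.05 to −0.04 in SW780 over the planned settings. By the authors' deposited log2 fold change, 16 members of UMUC3 were above 0 and 23 below. The median over all genes kept in UMUC3 moved as well, from 0.04 in the main setting to −0.04 by that measure. Removing the trend with GC content and length, an alternative chosen after seeing the data, left the counts past 2-fold and 1.5-fold as they were in both lines. Over both lines, limma without the cell line block called 0 of 11152 genes (8 at an unadjusted p under 0.05), limma with no filter 0 of 15241, and DESeq2 29; no setting called a member. Scaling to the genes in both tables, also chosen after seeing the data, was applied to the shNT libraries. It gave 15 members at least 2-fold higher and 6 at least 2-fold lower in SW780 than in UMUC3. The main scaling gave 15 and 5, beside 27.5% and 14.8% of genes. The share of genes was not counted for the other scaling. The cell line block pairs the libraries of a line; the labels give no replicate numbers to pair by, and with 1 library per group none could be left out. Depth limits weakly expressed members: an interval as wide as 1.30 to 2.42 stands behind MBOAT1 in UMUC3.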
